A study of Mus musculus with 4 samples.

Results

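Pax7 encodes a transcription factor with a paired domain and a homeodomain. It is known as a marker of the dorsal neural tube, of neural crest precursors and of muscle satellite cells, and in the neural tube Shh signalling is known to keep it out of ventral cells. Nuclear RNA includes unspliced transcripts, so a transcribed gene can give signal over introns as well as exons.

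Nuclear RNA over Pax7 was read in neural progenitor cells (NPC, 2 samples) and in the embryonic stem cells (ESC, 2 samples) from which they were derived. Both groups were 46c cells, a mouse ESC line that carries a fluorescent reporter of neural commitment. NPC had been differentiated with the N2B27 protocol, and ESC had been grown in GMEM with supplement. All samples come from this 1 line, and the labels do not say whether samples of a group are separate cultures. The p-values therefore reflect the spread between samples, which may be technical. Each sample was hybridised in 1 colour to a custom tiling array, and the labelling keeps no strand. The labels name no DNase step. In such bulk samples, fewer cells with a transcript and less RNA per cell cannot be told apart.

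The locus was taken as all non-control probes within chr4:139200001-139500000 (mm9), 1 of the 39 tiles of the array (runs of neighbouring probes broken by gaps over 50 kb), which gave 2313 of its 48316 probes, between 139230459 and 139455219. Pax7 lies on the minus strand at about 139293000-139390000, and 1104 probes had their midpoint in this gene body. The promoter side, above 139390000, held 586 probes over 65.2 kb, and the far side, below 139293000 and beyond the 3′ end, held 623 probes over 62.5 kb. Probes are 60 bases long, with a median spacing of 60 bases between starts. No exon annotation on mm9 was used, so exons, introns and UTRs were not told apart, and marker genes of NPC and ESC could not be placed on the array to check the labels.

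In the gene table (GRCm38, used only for names and order), the protein-coding neighbour on the far side is Tas1r2, a taste receptor gene, with the lncRNA Gm42334 between it and Pax7. On the promoter side the next entries are the lncRNAs Gm46873, whose span overlaps that of Pax7, Gm1667 and 4933427I22Rik, followed by Klhdc7a. The overlap is that of the outermost ends in the gene table. The array signal has no strand, so RNA of Pax7 and of Gm46873 cannot be told apart there. The single starts used for the promoter sequences differ from those ends and lie head to head with a gap between them. The 250 bases before these starts are shown as background on the promoter end of the gene. They are given 5′ to 3′ on each gene's own strand with CG pairs in capitals.
Pax7 (GRCm38.p6, chr4:139832969-139833218, minus strand): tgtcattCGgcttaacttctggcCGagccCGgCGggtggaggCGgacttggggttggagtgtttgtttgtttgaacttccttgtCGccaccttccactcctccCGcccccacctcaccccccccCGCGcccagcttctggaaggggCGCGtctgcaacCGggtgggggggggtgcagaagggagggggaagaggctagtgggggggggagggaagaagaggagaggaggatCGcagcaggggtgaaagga
Gm46873 (GRCm38.p6, chr4:139833218-139833467, plus strand): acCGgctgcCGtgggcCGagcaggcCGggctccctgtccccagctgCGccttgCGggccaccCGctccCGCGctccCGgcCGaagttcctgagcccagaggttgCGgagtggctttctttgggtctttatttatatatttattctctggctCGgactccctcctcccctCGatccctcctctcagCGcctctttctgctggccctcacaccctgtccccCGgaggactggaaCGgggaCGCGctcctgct
The Pax7 sequence holds 13 CG pairs, a number reached by 31.5% of the 32841 RefSeq promoter sequences of the same length, and that of Gm46873 holds 19, reached by 19.7%. CG reads the same on both strands. The letters TATAAA, searched on both strands, occur 0 times in the Pax7 sequence and 1 time in that of Gm46873, and 12.4% of all these promoters hold them. These sequences are on another build than the probes and were not placed on the array.

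Signal over the Pax7 gene body was higher in NPC than in ESC, while both flanks were lower with the scaling used first. Levels are means over probes of log2 intensity relative to each array's scaling percentile, and changes are NPC minus ESC. The gene body stood at -2.17 and -2.44 in NPC 1 and NPC 2, against -2.97 and -2.95 in ESC 1 and ESC 2. Both NPC arrays were above both ESC arrays, as they were in 27.7% of all 5 kb windows of the array. Such windows are smaller units than the gene body. The ESC pair was far tighter than the NPC pair. The change was 0.65 (SE 0.11), or 1.57-fold, with an adjusted p of 0.00979 (limma, Benjamini-Hochberg over 41 rows, namely the 3 zones and the 38 other tiles). In that fit 12.2% of the rows were called higher and 53.7% lower, and the gene body had the third largest rise of the 41.

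The promoter side stood at -3.42 and -3.51 in NPC, against -3.17 and -3.17 in ESC, a change of -0.30 (SE 0.07, limma adjusted p = 0.0213). This call was lost without the chromosome 12 tile in the scaling (-0.083, limma adjusted p = 0.544), with the median change per control spot of the kind named SRN (-0.011, 0.931), with the median over probes (-0.30, 0.105), with the replicate block (-0.30, 0.0934) and without either ESC array. The far side stood at -3.46 and -3.53 in NPC, against -2.98 and -2.94 in ESC, a change of -0.53 (SE 0.07, limma adjusted p = 0.00572). In each flank both NPC arrays lay below both ESC arrays, as they did in 57.9% of all 5 kb windows of the array. Such windows are again smaller units than a flank. The median change of all 963 windows of the array was -0.34 with this scaling. Relative to that median the promoter side was at 0.045, the far side at -0.19 and the gene body at 0.997. The flank values thus lay near the level to which most of the array shifted, and their sign depended on the scaling: when scaled by SRN spot medians, the promoter side was called higher (0.31, limma adjusted p = 0.0405) and the far side was at 0.071 (0.627).

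**Figure D1:**
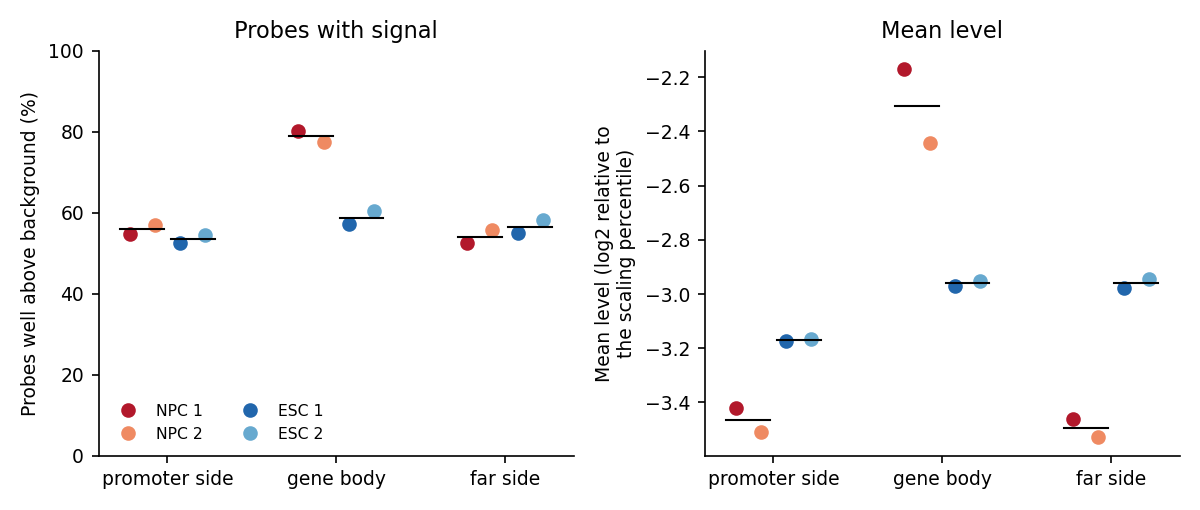
Left, percent of probes well above background, and right, mean level (log2 relative to the scaling percentile) in the promoter side, the gene body and the far side of Pax7; points are the arrays NPC 1, NPC 2, ESC 1 and ESC 2, and bars are group means. In the gene body both NPC arrays lie above both ESC arrays in both panels, with 80.3% and 77.4% of probes in NPC against 57.2% and 60.4% in ESC.

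The gene body was also set against its flanks within each array, where a scaling factor between arrays drops out. The gene body minus the flanks was 1.27 and 1.08 in NPC 1 and NPC 2, against 0.10 and 0.10 in ESC 1 and ESC 2. Different probes lie in the 2 areas, so only the change of this difference is read, which was 1.07, or 2.11-fold. It was 0.31 with normexp and 0.77 in the authors' values, which change more than 1 factor per array. The exact permutation test of 2 against 2 arrays gave p = 0.333 (two-sided), the smallest it can give. With all arrays scaled to the flank mean, a scaling chosen after seeing the data, the gene body changed by 1.07 (SE 0.09, limma adjusted p = 0.00488), where 29.3% of the rows were called higher and 19.5% lower. The gene body call of the first fit was lost with normexp (change 0.096, limma adjusted p = 0.0898), with the all-probe percentile (0.27, 0.0580) and in the authors' values (0.27, 0.0531). It was also lost without ESC 1 (0.65, limma adjusted p = 0.0946) and without ESC 2 (0.66, 0.0995), as were those of both flanks.

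**Figure D2:**
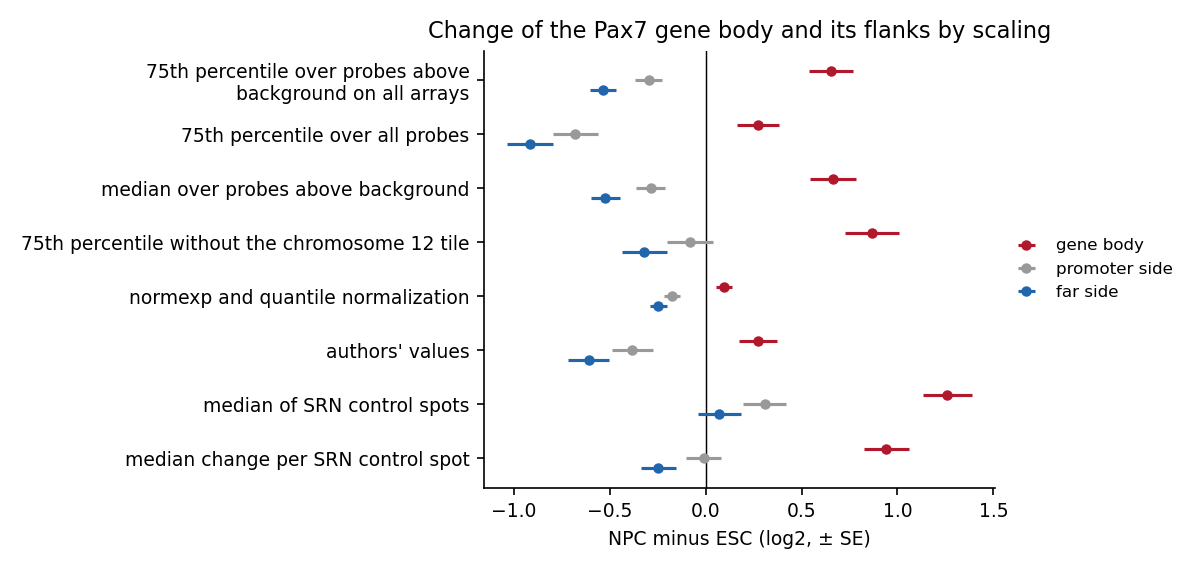
Change (NPC minus ESC, log2, with SE) of the gene body, the promoter side and the far side under 8 ways of scaling, from limma fits over zones and tiles. The gene body lies between 0.096 (normexp) and 1.26 (array medians of SRN control spots), and the flanks lie on either side of 0. Its distance from the flanks can differ only with normexp and the authors' values, since the other scalings move all probes of an array alike.

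The share of probes with signal was also higher in NPC over the gene body, with no test made. Probes well above background, as marked by the scanner program, made up 78.8% ± 1.99 of the gene body in NPC and 58.8% ± 2.31 in ESC (SD, n = 2 each). On the promoter side they made up 55.9% ± 1.57 in NPC and 53.5% ± 1.33 in ESC, and on the far side 54.1% ± 2.27 in NPC and 56.6% ± 2.38 in ESC. Over all probes of the array they made up 54.2% ± 0.10 in NPC and 43.6% ± 1.49 in ESC, a difference of 10.7 percentage points, against 20.1 in the gene body, 2.39 on the promoter side and -2.49 on the far side. Of the negative control spots, 1.93% on average were marked in the same way, so signal above background was frequent in ESC too, over the gene body and over both flanks alike.

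Of the 1104 gene body probes, 175 (15.9%) were well above background on both NPC arrays and on no ESC array, and 6 (0.543%) showed the reverse. Over all probes of the array, the chromosome 12 tile included, these shares were 10.8% and 1.48%. On the promoter side the counts were 18 and 3 of 586 probes, and on the far side 7 and 7 of 623. Along the gene, such probes with signal only in NPC numbered 45, 47, 41 and 42 in 4 segments of equal length counted from the promoter end. They were thus spread over the whole gene length.

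The largest lower bounds among these probes show the size of single differences, and the probes below were singled out after their values were seen. Since no ESC array measured them, the ESC side is a bound: per array, the higher of the probe's own signal and the lowest signal among probes well above background. The probe at chr4:139369994-139370053 read 0.94 and 0.42 in NPC 1 and NPC 2, against -3.987 and -4.003 in ESC 1 and ESC 2, at least 18.1-fold higher in NPC. The probe at chr4:139384114-139384173, 5.86 kb into the gene, read 0.74 and 0.21 in NPC, against -5.26 and -5.88 in ESC, at least 15.7-fold higher. The value of ESC 2 there is the floor of that array. These probes were selected by the same values, so no test is given. For 174 gene body probes with both groups tested the median bound was 1.84-fold, 31 exceeded 4-fold, and 13 had a bound under 1 and so give no fold.

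Tested one by one, 173 of 1096 gene body probes (15.8%) were called higher and 10 lower (limma, Benjamini-Hochberg over 47900 probes), where 10.7% of all probes were called higher and 1.58% lower. The higher count was 83 in the authors' values, 85 with normexp, 86 with the replicate block, 92 without ESC 1, 97 without ESC 2 and 260 with the SRN medians. The lower count was 63 without NPC 1, 18 without NPC 2 and 17 with normexp. The share of all probes called was not taken in these alternatives, so their counts cannot be set against the array. In the first of these fits 7 of 1198 flank probes were called higher and 12 lower. The change was above 0 for 64.7% of gene body probes, against 29.7% on the promoter side, 21.4% on the far side and 41.4% over all probes. After scaling, the floor for low values was -5.77 and -5.88 in the ESC arrays and -6.07 and -6.36 in the NPC arrays. A probe at the floor on all 4 arrays thus counts as below 0, and its change, -0.39, is also the median of each flank. Probes well above background on no array made up 34.0% of tested promoter side probes, 30.4% on the far side and 13.4% in the gene body. The shares above 0 are therefore not read as measured falls in the flanks. Among the gene body probes well above background on all 4 arrays, 534 of those tested, the median change was only 0.10. For such probes it was -0.29 on the promoter side, -0.37 on the far side and -0.19 over all probes of the array. The interquartile range of all tested gene body probes was -0.26 to 1.57, a wide spread within 1 gene.

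The 5 kb windows give the profile along the gene. Of 19 windows centred in the gene body, 10 were called higher in NPC and 0 lower (limma, Benjamini-Hochberg over 963 windows), where 21.9% of all windows were called higher and 29.6% lower. At an unadjusted p under 0.05 the gene body counts were 12 and 0, where 23.8% of all windows were higher and 39.6% lower. Most higher windows of the array lie in a long tile on chromosome 12, and outside it and the Pax7 locus 5.07% of 750 windows were called higher. Of the 26 flank windows, 0 were called higher and 14 lower, with 0 and 16 at an unadjusted p under 0.05. Both NPC arrays lay above both ESC arrays in 16 of the 19 gene body windows and below them in 0, where 27.7% and 57.9% of all windows did so. The change was above 0 in 18 of the gene body windows and in 2 of the flank windows, where 32.6% of all windows had such a change. With the arrays scaled to the flanks, 16 gene body windows were called higher, where 28.5% of all windows were called higher and 6.44% lower. That scaling sets the flank mean of every array to 0, so no flank counts are read from it. Without ESC 1 and without ESC 2, limma called 0 of the 963 windows of the whole array in either direction, these included. At an unadjusted p under 0.05, 6 and 5 of the 19 gene body windows were then higher, where 19.7% and 19.2% of all windows were.

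**Figure D3:**
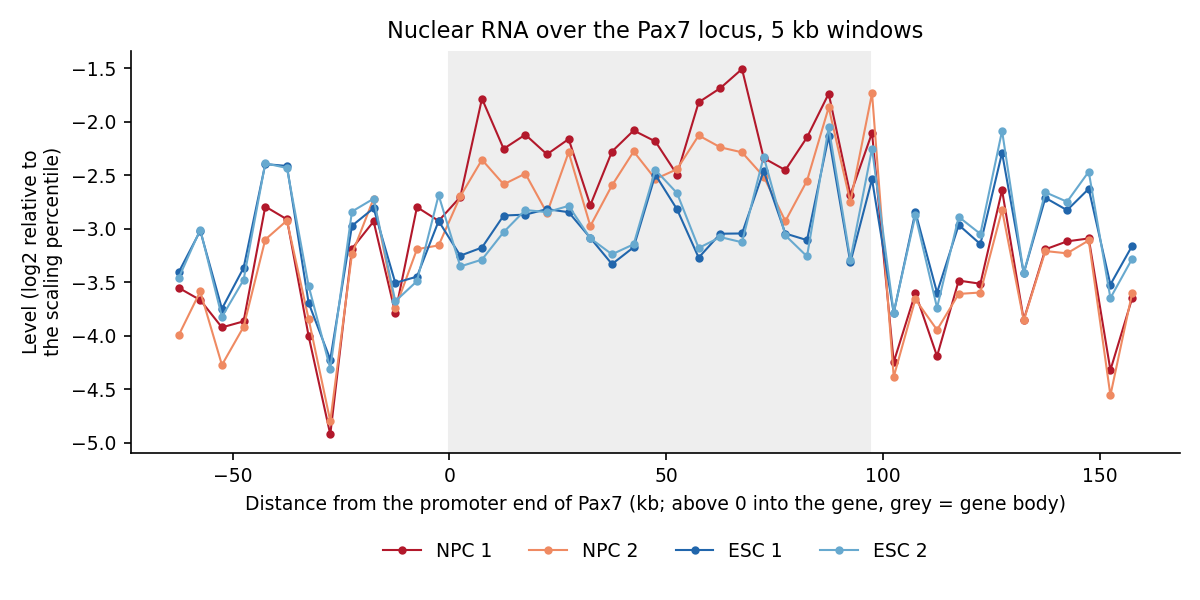
Level of the 2 NPC and 2 ESC arrays (log2 relative to the scaling percentile) in 5 kb windows of the Pax7 locus, against distance from the promoter end in kb, with the gene body in grey. NPC lies above ESC over most of the gene, with NPC 1 above NPC 2 in 17 of 19 windows, and at or below ESC over most of both flanks.

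The 3 largest rises lay in the interior of the gene and near its start. The window at 139330001-139335000 stood at -1.82 and -2.13 in NPC, against -3.27 and -3.18 in ESC, a change of 1.25 (SE 0.16, limma adjusted p = 0.00918). The window at 139320001-139325000 stood at -1.51 and -2.28 in NPC, against -3.04 and -3.13 in ESC, a change of 1.19 (SE 0.29, limma adjusted p = 0.0320). In the window at 139380001-139385000, centred 7.5 kb into the gene, the values were -1.78 and -2.35 in NPC, against -3.18 and -3.29 in ESC, a change of 1.16 (SE 0.23, limma adjusted p = 0.0208). In all 3 the groups were separate, with the NPC arrays 0.31 to 0.78 apart. Further windows called among the 10 largest changes of the locus began at 139325001, 139345001, 139350001 and 139305001, with rises of 1.101, 0.98, 0.85 and 0.83. The other 3 of these 10 were falls on the far side, from 139235001, 139280001 and 139270001, with changes of -0.86, -0.77 and -0.62. With normexp the 7 rises were smaller, at 0.099 to 0.36, and the one from 139350001 was not called.

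Rises were not even along the gene. The window at 139315001-139320000 stood at -2.34 and -2.51 in NPC, against -2.46 and -2.33 in ESC, and that at 139340001-139345000 at -2.18 and -2.53 in NPC, against -2.49 and -2.45 in ESC, with changes of -0.033 and 0.11. The groups overlapped in both. These windows and the one at 139300001 had the highest ESC levels of the gene body, and their changes ranked 19, 18 and 14 of 19. Level and change share the ESC arrays, so this is a description only. All 19 windows had a larger share of probes well above background in NPC, at 67.02% to 89.4%, against 48.3% to 78.1% in ESC. Across the 19 windows, NPC 1 minus ESC 1 and NPC 2 minus ESC 2, which share no array, correlated at 0.90 (Pearson) and 0.91 (Spearman), and the crossed differences at 0.82 (Pearson). The numbers pair no samples, so neither order is preferred, and all arrays share the probes and the slide.

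**Figure D4:**
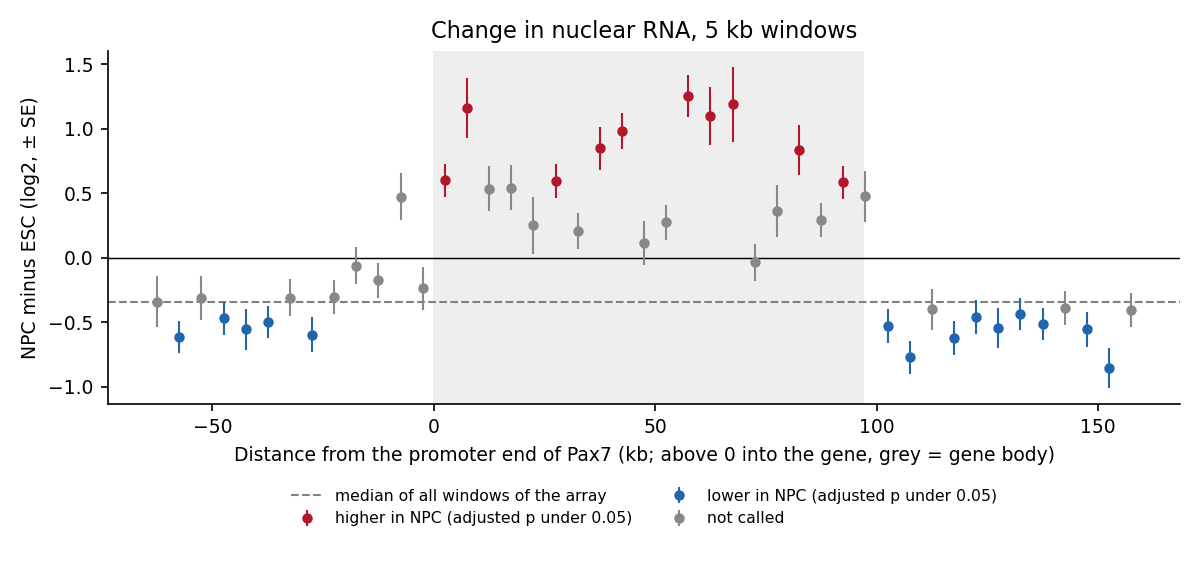
Change (NPC minus ESC, log2, with SE) in 5 kb windows against distance from the promoter end of Pax7, with the gene body in grey, called windows in colour and the median of all windows (-0.34) as a dashed line. The 10 higher calls lie within the gene body and the 14 lower calls in the flanks.

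Cut into 4 segments of 24.25 kb from the promoter end, the gene rose in each of them. The changes were 0.65 (SE 0.14), 0.56 (SE 0.12), 0.79 (SE 0.13) and 0.61 (SE 0.08), with limma adjusted p of 0.0145, 0.0158, 0.00830 and 0.00552 over 44 rows, of which 18.2% were called higher and 52.3% lower. Differences among the segments were not tested. The third segment stood at -1.97 and -2.29 in NPC, against -2.94 and -2.89 in ESC. It was called under all 11 alternatives with 4 arrays, though at 0.17 with normexp (limma adjusted p = 0.0129) and 0.38 in the authors' values (0.0173). With normexp the first segment was at 0.096, the second at 0.015 and the fourth at 0.10, with limma adjusted p of 0.0762, 0.740 and 0.141. All 4 segments lost the call without ESC 1 or without ESC 2, with adjusted p from 0.0780 to 0.121.

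The far end of the gene was marked by a sharp step. Over the last 3 kb of the gene, 38 of the 41 probes read higher in NPC, at -2.05 and -1.13 in NPC 1 and NPC 2, against -3.52 and -3.03 in ESC 1 and ESC 2, a change of 1.68. In the next 3 kb beyond it, 4 of 30 probes read higher in NPC, at -2.47 and -2.74 in NPC, against -1.77 and -1.85 in ESC, a change of -0.79. The groups were separate on both sides of the end, in opposite order. These stretches were chosen after seeing the profile and were not tested. The 5 kb window that straddles the end, from 139290001, counts as far side by its centre and changed by 0.48 (SE 0.20, limma adjusted p = 0.101). It was called higher when scaled by SRN spot medians (1.08, limma adjusted p = 0.0166), where 31.6% of all windows were called higher. Without NPC 1 its change was 0.66. In the last 3 kb NPC 2 exceeded NPC 1, the reverse of most of the gene body.

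The promoter end was less sharp. The first 3 kb of the gene stood at -2.65 and -2.51 in NPC, against -3.05 and -3.02 in ESC, a change of 0.46, with 23 of 34 probes higher in NPC. The 3 kb before the promoter end stood at -2.74 and -3.01 in NPC, against -2.94 and -2.70 in ESC, a change of -0.057 with overlapping groups. From 6 to 11 kb before the promoter end, NPC again read higher, at -2.61 and -3.04, against -3.53 and -3.57 in ESC, a change of 0.73. This stretch held 13 of the 18 promoter side probes with signal only in NPC, among them that at chr4:139398168-139398227, at least 2.98-fold higher in NPC. The window that holds most of it, 139395001-139400000, changed by 0.47 (SE 0.18) and did not pass (limma adjusted p = 0.0822). It was called higher with dim probes left out (0.69, limma adjusted p = 0.0385) and with the median over probes (0.89, 0.0346). The same held for scaling by SRN spot medians (1.08, limma adjusted p = 0.00956) and by each SRN spot's change (0.76, 0.0308). Without NPC 2 the change of this window was 0.67. Gm46873 lies on this side of Pax7 in the gene table. Whether it covers the stretch was not tested.

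**Figure D5:**
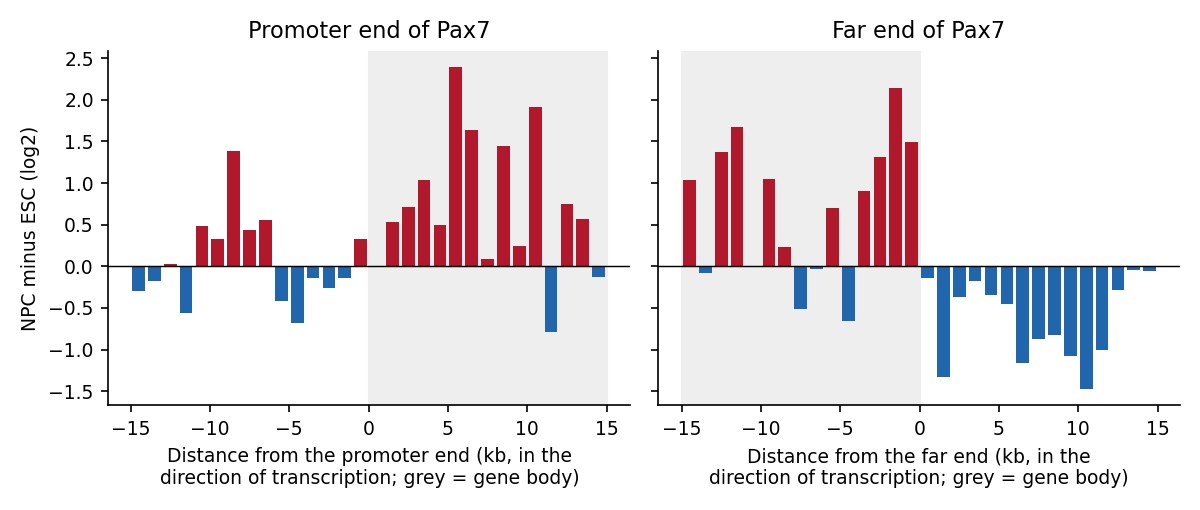
Change (NPC minus ESC, log2) in 1 kb bins within 15 kb of the promoter end and the far end of Pax7, in the direction of transcription, with the gene body in grey; bars are means over the probes of a bin, with no test. At the far end the 3 last bins of the gene are above 0 and all 15 bins beyond it are below 0. Further into the gene some bins also lie below 0, as at 4 to 5 kb (-0.65) and 7 to 8 kb (-0.52) from the far end. Bins above 0 also occur 6 to 11 kb before the promoter end. The place of 0 depends on the scaling between arrays, and the median change of all 5 kb windows was -0.34.

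Among the other tiles of the array, those most like the whole locus in the share of probes well above background on the 4 arrays were chrX:58141136-58153474, chr7:146760873-146783674 and chr7:149758545-149858777. The locus as a whole had 66.4% of probes with signal in NPC and 56.9% in ESC. The 3 tiles had 67.5%, 58.9% and 57.9% in NPC and 50.3%, 60.1% and 54.3% in ESC. Their changes were 0.69 (limma adjusted p = 0.0130), -0.46 (0.00721) and -0.092 (0.315). Likeness was measured over 4 arrays in 2 groups, which is little to go by. The change of the locus taken as 1 row was 0.093 (SE 0.09, limma adjusted p = 0.389). With this scaling its gene body rose and its flanks fell, and the sign of the flanks depended on the scaling.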

How the data were processed

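Nuclear RNA of 2 NPC and 2 ESC samples was amplified, labelled with Cy3 and hybridised to 1 array each, per the labels' protocols. Spot intensity was deposited as scanner output. Background had been subtracted by Agilent Feature Extraction 11.5.1.1, per the file headers, on an mm9 design with yes or no marks added (unit other), and low values were replaced by a floor. The authors' table holds values taken to be log2, with limma named in the submitters' processing notes and centring, scale and normalization not given in the sources used here; it served as an alternative.

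Log2 intensity was scaled to each array's 75th percentile over those 15356 probes that every array marked as well above background, since 48.9% of probes passed overall. Outlier spots and controls were left out. Probes were assigned by midpoint and averaged over zones, 4 gene segments or 5 kb windows with at least 5 probes. Fits used limma 3.58.1 in R 4.3.3 (lmFit, eBayes, group as the single term) over the whole array, with calls at an adjusted p under 0.05. They were also run on simulated data with independent noise and no floor, from which no support is drawn. All arrays share 1 slide. Windows were named if called, up to 10 by size of change; most like tiles by Euclidean distance of shares. The files lack a mean spot signal, so normexp (offset 50) used the median. The planned lists of markers and related genes could not be placed on mm9 and were not run. The members, zones and lists were chosen with earlier results of these data known. The number of arrays limits the precision. Figures used matplotlib 3.10.9.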

Additional observations from a re-analysis of the deposited data

Results flagged for a closer look

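The control spots named SRN, which enter no comparison of the locus, carried signal: a mean of 56.4% of them per array were well above background, while 1.93% of negative controls were. The labels and headers do not say what they hold, and they served only as added scalings.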

How the results depend on the processing

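Several calls depended on the scaling between arrays. SRN scalings and the scaling to the flanks of the locus were added after seeing the data. Values below are the gene body, promoter side or far side changes, the changes of the 4 segments (numbered from the promoter end), and counts of windows or probes, where only those that lost a call, moved or turned are given. The cause was not tested. For probe counts, the share over all probes was taken only with the first scaling. With the percentile over all probes the gene body was at 0.27 and segments 1, 2 and 4 at 0.27, 0.18 and 0.23, all no longer called, with 23 flank windows lower, and 3 flank probes higher and 22 lower. With normexp the gene body was at 0.096, segments 1, 2 and 4 at 0.096, 0.015 and 0.10, and the gene body minus the flanks at 0.31; 6 gene body windows were higher and 1 lower, 85 gene body probes higher and 17 lower, and 0 flank probes higher and 35 lower. With the authors' values the gene body was at 0.27, segments 2 and 4 at 0.18 and 0.22, and the gene body minus the flanks at 0.77, with 6 gene body windows, 83 gene body probes and 3 flank probes higher. The percentile without the chromosome 12 tile left the promoter side at -0.083 (not called) and 1 flank window lower. With the array medians of SRN spots the far side turned to 0.071 and the promoter side to 0.31, 19 gene body and 2 flank windows were higher and 0 flank windows lower, 260 gene body and 19 flank probes higher, and 6 gene body and 7 flank probes lower. Under the scaling by each SRN spot's change the far side was at -0.25 and the promoter side at -0.011, neither called, with 1 flank window higher, 2 lower and 11 flank probes higher. Scaled to the flanks, 16 gene body windows were higher. With the median over probes the promoter side was at -0.30 (not called), the gene body minus the flanks at 1.22, and 1 flank window was higher and 2 lower. With dim probes left out 1 flank window was higher. Windows of 2 kb, of which more were tested, gave 17 higher of 49 in the gene body and 1 of 64 in the flanks. Of all 2272 such windows 21.2% were higher. With a limit from negative control spots the share of probes above background differed by 15.9 percentage points in the gene body, 5.03 on the promoter side and 0 on the far side, against 20.1, 2.39 and -2.49. Over all windows, higher and lower calls were 211 and 285. They were 196 and 617 under the all-probe percentile, 189 and 350 under normexp, 200 and 450 in the authors' values, 226 and 67 without the chromosome 12 tile, and 304 and 26 with the array medians of SRN spots. The median change of all windows ran from -0.72 to 0.26 over these. The median of the gene body windows minus it was 0.93, which a constant per array cannot move, 0.19 with normexp and 0.63 with the authors' values. Higher and lower calls over all windows were 244 and 72 under the scaling by each SRN spot's change and 232 and 149 with the median over probes. They were 210 and 149 with the replicate block, and 237 and 262 of 919 windows with dim probes left out.

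Fits without 1 array, in which the remaining array of its group takes its spread from the other group, gave a gene body change of 0.52 to 0.79, a promoter side of -0.34 to -0.25, a far side of -0.57 to -0.50, and segments of 0.48 to 0.82, 0.41 to 0.71, 0.62 to 0.95 and 0.55 to 0.67; all lost the call without either ESC array. Gene body windows higher were 0 to 14, flank windows higher 0 to 1 and lower 0 to 18, gene body probes higher 92 to 209 and lower 7 to 63, and flank probes higher 4 to 21 and lower 12 to 92. The replicate numbers of NPC and ESC share only a number (correlation of deviations 0.037 over windows). With the replicate block the promoter side, at -0.30, was not called, and 4 flank windows were lower, 86 gene body and 2 flank probes higher and 5 flank probes lower; the gene body, the far side and the segments were still called. Of the 10 named windows, 6 of the 7 in the gene body kept their call in all 12 alternatives with 4 arrays, and the one at 139350001 in 10; the 3 on the far side, from 139235001, 139270001 and 139280001, kept it in 9, 7 and 8 of 11. The gene body windows that kept the call were smaller with normexp, at 0.16 to 0.36.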

Other observations

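Along the gene body NPC 1 read higher than NPC 2 in 17 of 19 windows, by 0.31 on average (log2), while in the 26 flank windows NPC 2 minus NPC 1 averaged -0.059. The order turned at the 3′ end, where single probes at chr4:139294511-139294570, chr4:139294751-139294810 and chr4:139295231-139295290, singled out after their values were seen, read -1.17, -1.09 and -1.25 in NPC 1 and 1.03, 0.36 and 0.49 in NPC 2. Neither ESC array was well above background at these probes. Over the 19 gene body windows the NPC pair correlated at 0.80 (Pearson) and the ESC pair at 0.97, and over the 45 windows of the locus at 0.96 and 0.98, as a description over windows that share probes.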
